A study of Mus musculus with 9 samples.

Results

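*Tcf23*, *Dynap*, *Prl2c2* and *Prl2c3* were almost unread in the skin of control mice and were read in all 4 *Supt6*-KO mice. They were found by gene identifier as 4 of the 17943 genes in the count table. They were chosen by their read counts, few or none in the control mice and many in the *Supt6*-KO mice, so their difference between the groups is given here as a description, without a test. All 4 passed the filter of 10 counts summed over the mice, *Dynap*, *Prl2c2* and *Prl2c3* only through their *Supt6*-KO counts.

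Bulk RNA-Seq libraries came from the skin of 5 control and 4 *Supt6*-KO mice. The *Supt6*-KO mice were K14-CreERT; *Supt6* fl/fl and received tamoxifen. By the study's methods the controls were *Supt6* fl/fl and received corn oil, while the sample labels call them wild-type. Both groups were taken at day 10, counted from the last injection, and neither the labels nor the methods give ages for these 9 mice. The labels name ear skin and the study dorsal skin. The K14 promoter drives Cre in basal keratinocytes, whereas the libraries hold whole skin, so fewer cells of a type and less RNA per cell cannot be told apart. Nothing states whether the mice were littermates, so the spread between them may be partly technical. Counts summed to 29627341 to 30491197 per control mouse and to 30597189 to 30967107 per *Supt6*-KO mouse.

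The 4 genes belong to 3 unrelated families. *Tcf23* encodes a basic helix-loop-helix (bHLH) protein that is known from the reproductive tract, can bind partner bHLH proteins and inhibits DNA binding by bHLH factors. *Dynap* encodes a transmembrane protein that binds dynactin, the complex that links the motor dynein to its cargo. *Prl2c2* and *Prl2c3* encode proliferins, secreted relatives of the hormone prolactin that are made in quantity by trophoblast giant cells of the placenta and by some cultured cells when they are stimulated to grow. Proliferins carry mannose-6-phosphate and bind the receptor *Igf2r*, and they act on endothelial cells.

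In the GENCODE annotation of GRCm38 (mm10), *Tcf23* lies on the forward strand of chromosome 5 from 30968662 to 30977018, with 3 exons and a transcript of 4116 bases. *Prl2c3* (12790816 to 12800079) and *Prl2c2* (12996125 to 13005383) both lie on the reverse strand of chromosome 13, each with 5 exons, and 196045 bases separate them. A further proliferin gene, *Prl2c5*, follows on the forward strand after another 177331 bases.

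The proliferin coding sequences are shown because their likeness limits which gene a read can be given to. Over 672 coding bases *Prl2c2* and *Prl2c3* were identical at 669 (99.6%), and the differences from *Prl2c2* to *Prl2c3* were T14C, C200A and T319G, counted from 1 at the A of the start codon. *Prl2c5* was 96.1% identical to *Prl2c2* and 96.0% to *Prl2c3*. The stretch from coding base 170 to 229 holds 1 of the 3 differences. Capitals mark the base at which *Prl2c2* and *Prl2c3* differ and, in *Prl2c5*, the bases that differ from *Prl2c2*.
Prl2c2: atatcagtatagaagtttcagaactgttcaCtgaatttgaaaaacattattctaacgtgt
Prl2c3: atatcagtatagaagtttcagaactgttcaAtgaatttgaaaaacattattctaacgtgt
Prl2c5: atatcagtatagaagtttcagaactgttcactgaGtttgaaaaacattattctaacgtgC
Of all 100-base windows along the transcript, 493 of 743 (66.4%) in *Prl2c2* and 472 of 758 (62.3%) in *Prl2c3* also occur in a transcript of another gene. The share was 65 of 745 (8.73%) in *Prl2c5*, and it was 0 of 4017 in *Tcf23* and 0 of 1126 in *Dynap*. The division of reads between *Prl2c2* and *Prl2c3* is therefore uncertain, and their sum is given below beside the single values.

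*Supt6*, the targeted gene, was lower in every *Supt6*-KO mouse than in every control mouse. It had 2786, 2068, 2297, 3370 and 3798 counts in control mice and 684, 503, 478 and 791 in *Supt6*-KO mice. In normalized CPM (counts scaled to the same library size) this was 76.5 ± 17.2 (SD, n = 5) against 25.7 ± 3.31 (SD, n = 4). The fitted log2 ratio of *Supt6*-KO to control was -1.57 with a standard error of 0.18 (adjusted p = 1.3e-05, edgeR's quasi-likelihood test).

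*Tcf23* was the most evenly read of the 4 genes. It had 3, 2, 3, 2 and 2 counts in the control mice and 662, 443, 606 and 275 counts in *Supt6*-KO mice. The controls thus lay near the floor of 3 counts per library, and the lowest *Supt6*-KO mouse, mouse 4, was still far above all of them. The level was 0.0646 ± 0.0157 CPM (SD, n = 5) in control skin and 21.6 ± 8.40 CPM (SD, n = 4) in *Supt6*-KO skin. The ratio of these means was 335 with TMM factors and 201 with library totals, and the control mean lay below the floor of 0.0806 CPM (3 counts per library). With counts pooled over each group it was 326, with an exact 95% interval of 186 to 633 that covers counting error only. The highest *Supt6*-KO mouse was 2.81 times the lowest.

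*Dynap*, on the reverse strand of chromosome 18 from 70240429 to 70244582 (3 exons, transcript of 1225 bases), had 0 counts in all 5 control mice. In the *Supt6*-KO mice it had 13, 29, 130 and 978 counts, or 0.543, 1.39, 5.95 and 35.1 CPM. The groups did not overlap, but most of the reads came from mouse 4, and the highest mouse was 64.7 times the lowest. The mean of 10.7 ± 16.4 CPM (SD, n = 4) was at least 133-fold higher than a control group at the floor, and without mouse 4 the mean was 2.65 CPM and the bound 32.5-fold.

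*Prl2c3* was the more abundant of the 2 proliferins and had 0 counts in all 5 control mice. In the *Supt6*-KO mice its estimated counts were 251.92, 62.26, 113.46 and 561.05, or 10.5, 2.97, 5.17 and 20.1 CPM. Mouse 4 was again the highest, and mouse 2 the lowest. The mean was 9.71 ± 7.65 CPM (SD, n = 4), at least 120-fold higher than a control group at the floor. Without mouse 4 it was 6.26 CPM, at least 76.7-fold.

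*Prl2c2* also had 0 counts in all 5 control mice. Its estimated counts in *Supt6*-KO mice were 4.08, 8.74, 27.54 and 249.94, or 0.167, 0.432, 1.28 and 8.98 CPM. The value of mouse 1 was close to the floor, and mouse 4 held most of the counts. The mean was 2.71 ± 4.20 CPM (SD, n = 4), at least 33.7-fold higher than the floor, and without mouse 4 it was 0.633 CPM, at least 7.75-fold.

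**Figure D1:**
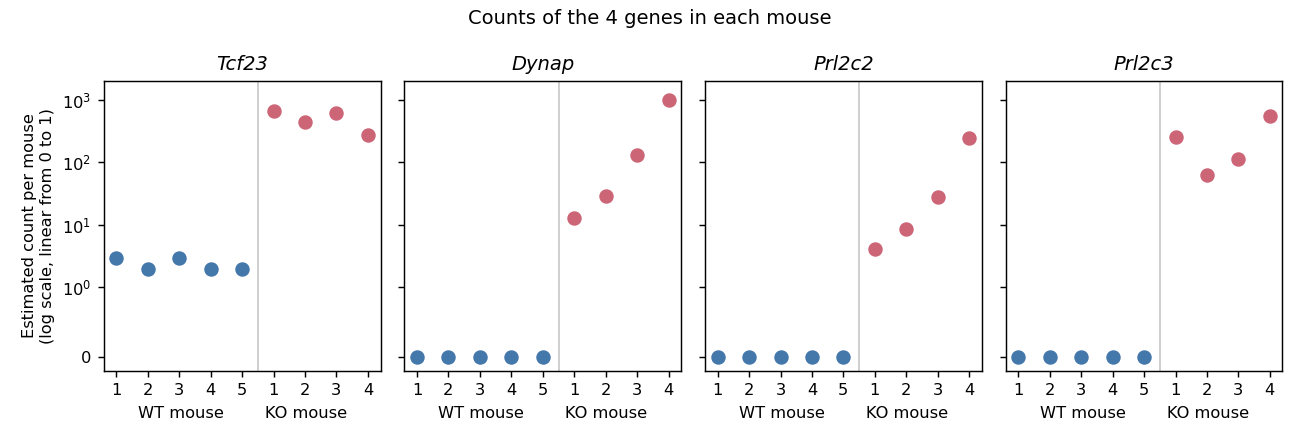
Estimated counts of Tcf23, Dynap, Prl2c2 and Prl2c3 in each of the 5 control (WT, blue) and 4 Supt6-KO (red) mice, 1 point per mouse, on a log axis that is linear from 0 to 1. Dynap, Prl2c2 and Prl2c3 sit at 0 in every control mouse and are highest in Supt6-KO mouse 4, whereas Tcf23 is lowest in that mouse.

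For each of the 4 genes every *Supt6*-KO mouse lay above every control mouse. This follows from how they were chosen, and it held for 28.9% of the 16426 genes tested. The plot of group means over all tested genes sets the 4 genes among all of these.

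**Figure D2:**
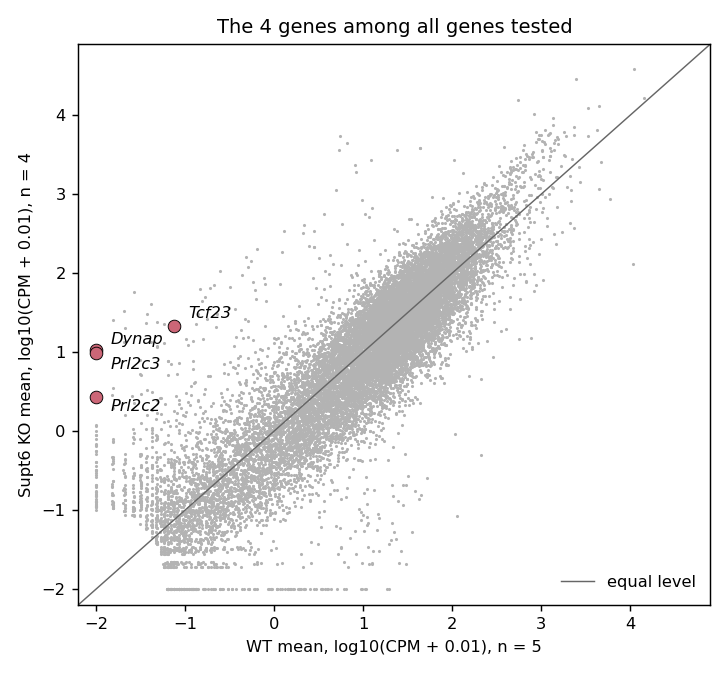
Mean level of each of the 16426 genes tested in Supt6-KO skin (n = 4) against control skin (n = 5), as log10 of CPM plus 0.01 on both axes, with the line of equal level. Dynap, Prl2c3 and Prl2c2 lie on the left edge, where the control mean is 0, and Tcf23 lies beside them at a control mean of 0.0646 CPM.

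Other near-silent genes place these values, as a description only, since the members were chosen for low control and high *Supt6*-KO counts. No row was at 0 in all 9 mice, so a gene at 0 in every control mouse has a row only through its *Supt6*-KO counts. Genes silent in both groups are therefore not among those counted here or under the wider limits below. Of 416 genes at 0 in every control mouse, 16 reached a mean of 10 counts in *Supt6*-KO skin and 3 reached 50. Those 3 were *Dynap* (mean 287.5 counts), *Prl2c3* (247) and *Prl2c2* (72.6). The next were *Fgf3*, a fibroblast growth factor, with 38, 30, 14 and 30 counts, and *H4c18*, a histone gene, with 11, 17, 31.11 and 50.93 counts, both named after their values were seen. Over all 4 mice their means of 28.0 and 27.5 counts were below that of *Prl2c2*. Without mouse 4 the mean was 142.5 for *Prl2c3* and 57.3 for *Dynap* but only 13.5 counts for *Prl2c2*, below *Fgf3* at 27.3 and *H4c18* at 19.7. Thus 2 of the 416 genes, *Prl2c3* and *Dynap*, reached 50 without that library, and *Prl2c2* was 10th.

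With the limit moved to 5 counts summed over the controls, 61 of 1621 genes (3.76%) reached a mean of 10 and 20 (1.23%) a mean of 50 counts. *Dynap* was 8th, *Prl2c3* 10th and *Prl2c2* 17th among them by mean count. The 5 highest were *Spink7* (mean 1308.5 counts), *Sprr2k* (830), *Cstdc4* (684), *Tmprss11b* (587.5) and *Cstdc6* (578). *Spink7* is a protease inhibitor of squamous epithelium, *Sprr2k* a small proline-rich protein of the cornified envelope, *Cstdc4* and *Cstdc6* stefin-type inhibitors of cysteine proteases, and *Tmprss11b* a membrane serine protease. *Tcf23* had 12 counts over the controls and was outside this limit. Among the 1879 genes with at most 3 counts in each control mouse it ranked 8th, with a mean of 496.5 counts.

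The 4 genes differed in how they were spread over the *Supt6*-KO mice. For 5372 genes with a mean of 50 to 500 counts in *Supt6*-KO skin, the coefficient of variation (the SD divided by the mean) over these mice had a median of 0.216 and a 95th percentile of 0.604. It was 0.388 for *Tcf23*, and 15.9% of those genes had a larger one. It was 0.789 for *Prl2c3*, exceeded by 1.96% of them. *Dynap* (1.53) was exceeded by only 4 and *Prl2c2* (1.55) by only 3 of the 5372 genes.

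*Supt6*-KO mouse 4 also differed from the other 3 in measures that do not involve the 4 genes. Its normalization factor was 0.910, against 0.674 to 0.781 in the other *Supt6*-KO mice and 1.20 to 1.31 in control mice. *Krt14*, a keratin of basal keratinocytes, had 267612.78 estimated counts in mouse 4 and 113209.22, 64901.11 and 86615.73 in mice 1, 2 and 3, while *Krt10*, a keratin of differentiating keratinocytes, had 216428 in mouse 4 and 468176, 413682 and 398412 in the others. *Supt6* was not lowest there, at 28.4 CPM against 28.6, 24.1 and 21.9. The part of these differences in the levels of the 4 genes was not tested.

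Levels of different genes can be compared per transcript length, as TPM (transcript abundance scaled to the same total). In the TPM deposited for mouse 4, *Dynap* was at 31.14, *Prl2c3* at 30.81, *Prl2c2* at 13.73 and *Tcf23* at 2.07. For the other 3 *Supt6*-KO mice TPM were rebuilt from the counts. In mouse 1 the rebuilt TPM were 11.4 for *Prl2c3*, 4.12 for *Tcf23*, 0.343 for *Dynap* and 0.185 for *Prl2c2*. Mice 2 and 3 had the same order as mouse 1, with *Prl2c3* at 2.51 and 4.53 and *Tcf23* at 2.45 and 3.32. Only in mouse 4 was *Tcf23* the lowest of the 4.

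Over the 4 *Supt6*-KO mice the mean TPM was 12.3 ± 12.9 (SD) for *Prl2c3*, 8.79 ± 15.0 for *Dynap*, 3.84 ± 6.60 for *Prl2c2* and 2.99 ± 0.918 for *Tcf23*. The ranges over mice of every adjacent pair in this order overlapped. Within a mouse, *Dynap* was above *Prl2c2* in 4 of 4 mice, by 1.85 to 2.74 times. This order holds only for the counts as divided between *Prl2c2* and *Prl2c3*, and that division is uncertain.

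**Figure D3:**
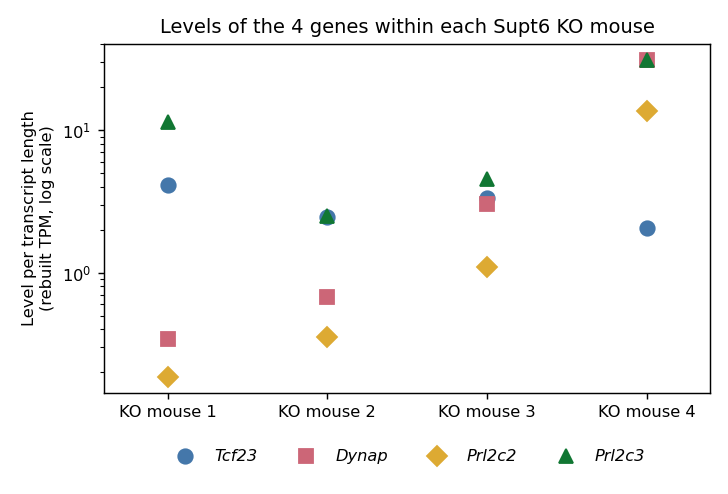
Level per transcript length (rebuilt TPM, log axis) of the 4 genes in each Supt6-KO mouse, 1 point per gene and mouse. Prl2c3 lies at or near the top in all 4 mice, Dynap goes from 0.343 in mouse 1 to 31.1 in mouse 4, and Tcf23 stays between 2.07 and 4.12.

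The estimated counts of *Prl2c2* and *Prl2c3* were fractional in 4 of 4 *Supt6*-KO mice, as arises when reads fit several genes, whereas those of *Tcf23*, *Dynap* and *Prl2c5* were whole in all 4. The sum of *Prl2c2* and *Prl2c3* was 256, 71, 141 and 811 counts in mice 1 to 4. Of this sum, 1.59%, 12.3%, 19.5% and 30.8% was assigned to *Prl2c2*. Mouse 1 thus had the second highest sum but the lowest share of *Prl2c2*. The summed level of *Prl2c2*, *Prl2c3* and *Prl2c5*, which does not depend on the division among them, was 10.8, 3.69, 6.72 and 29.8 CPM. It may still depend on reads shared with genes outside the sum. *Prl2c2* and *Prl2c3* share windows with *Gm7040*, and *Prl2c5* shares windows with *Prl2c1*.

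**Figure D4:**
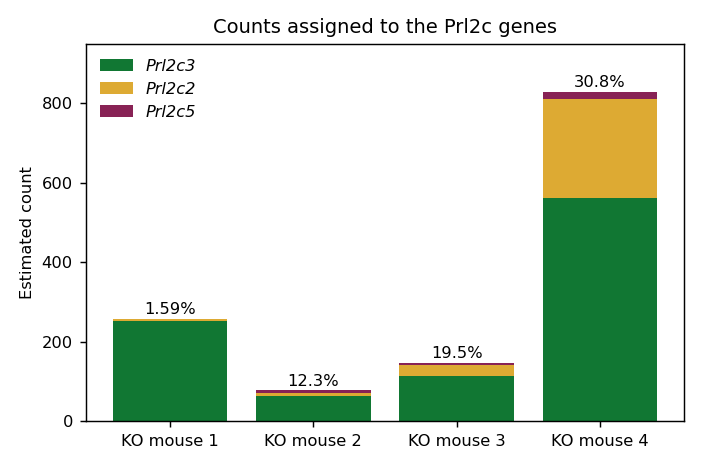
Estimated counts assigned to Prl2c3 (green), Prl2c2 (yellow) and Prl2c5 (purple), stacked for each Supt6-KO mouse, with the share of Prl2c2 in the sum of Prl2c2 and Prl2c3 printed above each bar. The bar of mouse 4 is the highest and has the largest share of Prl2c2, 30.8%, and that of mouse 1 the smallest, 1.59%.

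*Prl2c5*, whose transcript shares few windows with other genes, was read at lower levels. It had 1 count in control mouse 2 and 0 in the other controls, and 2, 6, 6 and 18 counts in *Supt6*-KO mice. Mouse 4 was the highest of the 4 mice here too. The level was 0.323 ± 0.235 CPM (SD, n = 4) in *Supt6*-KO skin and 0.0055 ± 0.0122 CPM (SD, n = 5) in control skin. The control level was under the floor of 0.0806 CPM. Because *Prl2c5* passed the count filter only through its *Supt6*-KO counts, no test is given for it.

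The bases before the transcription start are shown for the members and the close relative that RefSeq's promoter table (GRCm38.p6) held, because *Prl2c3* and *Prl2c5* were read together at unequal levels and because proliferin transcription is known to respond to AP-1, the dimers of *Jun* and *Fos* proteins. Each sequence is the 250 bases before the start in RefSeq, 5′ to 3′ on the gene's strand. The RefSeq start can differ from the GENCODE start. The window of *Tcf23* runs to 30968676, past the GENCODE start of 30968662, and that of *Prl2c5* ends on the GENCODE start of 13182715. Capitals mark matches to an AP-1 motif, taken loosely as TGANTCA with any base at N, or a TATA motif (TATAAA or TATATA).
Prl2c3 (chr13:12800080-12800329, reverse strand): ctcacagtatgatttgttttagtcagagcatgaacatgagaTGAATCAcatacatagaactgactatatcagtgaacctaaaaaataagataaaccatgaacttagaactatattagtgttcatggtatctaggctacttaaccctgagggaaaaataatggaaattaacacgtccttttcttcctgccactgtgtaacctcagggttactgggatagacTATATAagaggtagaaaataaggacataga
Prl2c5 (chr13:13182466-13182715, forward strand): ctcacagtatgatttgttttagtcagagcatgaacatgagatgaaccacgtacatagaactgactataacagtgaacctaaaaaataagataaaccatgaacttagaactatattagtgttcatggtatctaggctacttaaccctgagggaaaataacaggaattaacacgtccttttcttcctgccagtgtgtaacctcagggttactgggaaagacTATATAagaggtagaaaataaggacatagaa
Tcf23 (chr5:30968427-30968676, forward strand): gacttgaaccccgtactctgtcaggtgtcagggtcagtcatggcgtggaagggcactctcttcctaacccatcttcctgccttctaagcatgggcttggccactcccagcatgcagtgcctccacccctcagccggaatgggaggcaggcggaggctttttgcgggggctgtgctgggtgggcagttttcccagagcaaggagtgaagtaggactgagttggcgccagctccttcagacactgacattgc
The windows of *Prl2c3* and *Prl2c5* were identical at 241 of 251 aligned bases (96.0%). Both held TATATA, at 30 to 25 bases before the start in *Prl2c3* and at 31 to 26 in *Prl2c5*. *Prl2c3* also held TGAATCA at 209 to 203 bases before its start, where the window of *Prl2c5* had no match. The window of *Tcf23* had no match to these motifs. With both strands searched, 6.75% of 32851 promoter windows of this length held the AP-1 motif and 15.6% the TATA motif. A match is only a match of letters, and the motifs do not overlap in these windows. The windows of *Prl2c3* and *Prl2c5* differed at 10 of 251 aligned bases. The part of any of these differences in the unequal levels was not tested.

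The plot of neighbours by distance gives the nearest genes on either side. Besides *Prl2c5*, for which no test is given, 11 neighbouring genes passed the count filter. Of these, 0 were called higher and 1 lower by edgeR's quasi-likelihood test, where a call needs an adjusted p under 0.05 and at least a 2-fold change. Over all 16426 genes tested 20.9% were called higher and 24.9% lower. The median log2 ratio of the 11 was 0.36, against -0.07 for all genes, and it was -0.31 against -0.76 with library totals as the scale. Without the 2-fold limit 6 of the 11 had an adjusted p under 0.05 in edgeR, as did 71.0% of all genes. At an unadjusted p under 0.05 there were 4 with a positive and 3 with a negative log2 ratio. *Atraid* was the 1 gene called higher with DESeq2, and also without control mouse 2, control mouse 3 or *Supt6*-KO mouse 4. The number called lower was 3 with library totals, beside 6802 of all 16426 genes.

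The gene called lower was *Ero1b*, which encodes an oxidase of the endoplasmic reticulum and lies 181 kb before *Prl2c3*. It had 204, 212, 149, 197 and 262 counts in control mice and 61, 40, 43 and 55 in *Supt6*-KO mice (log2 ratio -1.38 with standard error 0.19, edgeR adjusted p = 6.0e-05). Thus the gene nearest to *Prl2c3* on 1 side was lower while *Prl2c3* itself was read only in *Supt6*-KO skin. On the far side of the proliferin genes *Gpr137b*, a lysosomal membrane protein gene, had a log2 ratio of 0.65 and was not called.

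Neighbours of *Tcf23* were closer to it. *Preb*, 8.24 kb before it and a transcription regulator and transport factor named for binding a prolactin element, had a log2 ratio of 0.36, and *Abhd1*, at 13.5 kb, of -0.04. *Slc5a6*, a vitamin transporter at 48.0 kb after it, had -0.45 and *Atraid*, at 60.6 kb, 0.99. Around *Dynap* the 4 nearest genes were *Rab27b*, a GTPase of vesicle secretion, at 98.8 kb (0.78), *Ccdc68* at 271 kb (0.56), *4930503L19Rik* at 208 kb (0.47) and *Stard6* at 228 kb (-0.19). None of these 8 genes was called, and none had fewer than 10 counts in a mouse. Neighbours were taken from the genes with a row, and no row was at 0 in all 9 mice. A neighbour silent in every mouse could therefore not appear here.

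**Figure D5:**
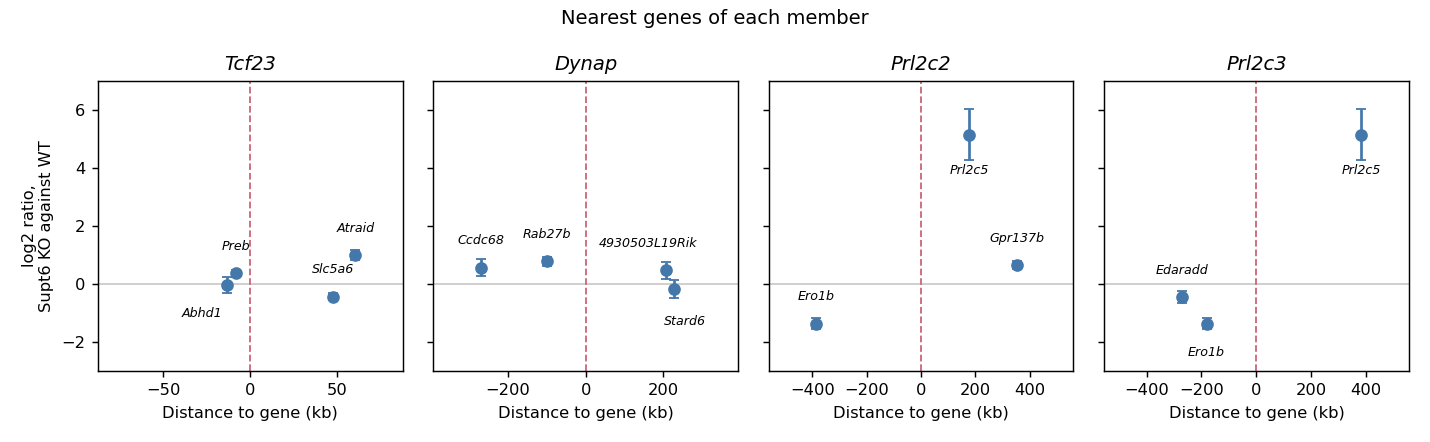
Log2 ratio (points, bars are standard errors) of the nearest genes in the table on each side of Tcf23, Dynap, Prl2c2 and Prl2c3, against the distance in kb, with the 4 genes themselves at the dashed line and not plotted. Apart from Prl2c5 at 5.15, a fitted value that depends on the prior count because it rests on 1 control count, every neighbour lies between -1.38 and 0.99.

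The rest of the prolactin family stayed near the limit of detection. Of 25 other family members, 14 had a row in the table and 3 had enough counts to be tested, all through their *Supt6*-KO counts. These 3 were *Prl2c5*, *Prl8a9* and *Prl8a1*, and since a gene with so few control counts could enter the test only by being high in *Supt6*-KO skin, their calls are not counted here. *Prl8a9* had 0 counts in control mice and 5, 5, 5 and 11 in *Supt6*-KO mice, and *Prl8a1* had 0 and then 3, 0, 1 and 8. Both encode placental prolactin-like hormones. *Prl* itself, the pituitary hormone, had 1 count in 1 *Supt6*-KO mouse. The highest value among the other untested members was 7 counts of *Prl2a1*, again in mouse 4. Summed over the 14 genes, the level was 0.418, 0.720, 0.640 and 1.98 CPM in *Supt6*-KO mice and at most 0.0548 CPM in a control mouse. The listed genes without a row here were *Prl2b1*, *Prl2c1*, *Prl3a1*, *Prl3b1*, *Prl3c1*, *Prl3d1*, *Prl4a1*, *Prl5a1*, *Prl7a2*, *Prl8a2* and *Prl8a8*.

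Few markers of the placental lineage were read. Of 20 markers, 11 had a row and 5 were tested, of which 1 was called higher and 2 lower. Of the latter, *Syna* passed the count filter through its control counts alone, with 6 counts over the *Supt6*-KO mice. *Ctsj*, *Ctsm*, *Plac1*, *Eomes*, *Psg17* and *Psg23* had at most 4 counts in any mouse. *Ctsj* (1, 1, 1 and 2 counts in *Supt6*-KO mice), *Eomes* (2, 0, 4 and 3), *Psg17* (0, 0, 2 and 1) and *Ctsm* (0, 0, 0 and 1) were at 0 in every control mouse. A gene at 0 in the controls has a row only through its *Supt6*-KO counts. *Plac1* and *Psg23* had counts in both groups. There was no row for *Gcm1*, *Tpbpa*, *Tpbpb*, *Ctsq*, *Ctsr*, *Rhox6*, *Rhox9*, *Cdx2* and *Psg21*, which include defining genes of trophoblast. The background over all genes was 20.9% higher and 24.9% lower. The gene called higher, *Elf5*, is also a factor of other epithelia and had a log2 ratio of 1.62 (0.92 and no call with library totals). Those called lower were *Syna*, a placental envelope protein gene (-2.42), and *Hsd3b6*, a steroid enzyme gene (-2.43). The summed level, led by *Hsd3b6* in control and by *Elf5* in *Supt6*-KO skin, was 29.4 ± 2.42 CPM (SD, n = 5) in control and 19.9 ± 2.78 CPM (SD, n = 4) in *Supt6*-KO skin. It was lowest, at 16.7 CPM, in mouse 4. This sum rests largely on *Hsd3b6*, *Ascl2* and *Elf5*, which were read in every mouse, control mice included, and so it is not a measure of placental cells.

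The list of receptor genes for prolactin and the proliferins also held related receptors and signal mediators. All genes of this list were read in both groups. Of 9 genes, 1 was called higher and 3 lower with a median log2 ratio of -0.39, and with library totals 0 were higher and 6 lower. Over all genes tested the shares with TMM factors were 20.9% higher and 24.9% lower, and the counts of these 9 genes with TMM factors are near them. Library totals gave 1470 higher and 6802 lower of all 16426 genes, with a median log2 ratio of -0.76. *Igf2r*, the proliferin receptor, had 974, 748, 943, 1181 and 1710 counts in control mice and 429, 481, 482 and 753 in *Supt6*-KO mice. In CPM these overlapped, at 29.6 ± 8.77 (SD, n = 5) and 22.5 ± 3.75 (SD, n = 4), and *Igf2r* was not called (log2 ratio -0.39, adjusted p = 0.11 from edgeR). With library totals its log2 ratio was -1.09 and it was called lower.

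*M6pr*, the other mannose-6-phosphate receptor, was the gene called higher. It had 4647, 5274, 4890, 4409 and 4511 counts in control mice and 6172, 4983, 5927 and 10550 in *Supt6*-KO mice (log2 ratio 1.17, adjusted p = 3.6e-05 from edgeR, 0.51 and no call with library totals). Mouse 4 was the highest. *Prlr*, the prolactin receptor, went the other way. Its level was 19.9 ± 3.13 CPM (SD, n = 5) in control and 7.12 ± 2.45 CPM (SD, n = 4) in *Supt6*-KO skin, with a log2 ratio of -1.48 (edgeR adjusted p = 0.00016). *Stat5a* (-1.65) and *Stat5b* (-1.27), the transcription factors that *Prlr* activates, were also called lower. *Ghr*, *Jak2*, *Socs2* and *Cish* were not called, at -0.06, -0.31, -0.28 and -0.74.

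Of 15 bHLH relatives of *Tcf23* 13 had a row and 12 were tested, of which 0 were called higher and 4 lower, beside 20.9% higher and 24.9% lower over all genes. The number lower is near that background. Of these 4, *Tcf21*, *Hand2* and *Bhlha9* had fewer than 10 counts over the *Supt6*-KO mice and passed the count filter through their control counts alone, which leaves 1, *Tcf15*. At an unadjusted p under 0.05, and with DESeq2, 0 relatives were higher. *Tcf15* fell from 0.316 to 0.114 CPM, *Bhlha9* from 0.817 to 0.0647 CPM and *Hand2* from 0.290 to 0.0693 CPM, and *Tcf21* had 12 counts over the controls and 0 in *Supt6*-KO mice. All of these are factors of mesoderm or limb and were read at low levels in skin. *Tcf24*, whose protein is much like that of *Tcf23*, had 57, 51, 60, 44 and 44 counts in control mice and 49, 23, 18 and 32 in *Supt6*-KO mice (log2 ratio -0.10, not called). With library totals 6 relatives were lower and 0 higher, beside 6802 lower and 1470 higher of all 16426 genes tested.

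Among 7 genes for E proteins, the common bHLH partners, and Id proteins, their inhibitors, 0 were called higher and 1 lower (median -0.23, with 20.9% and 24.9% over all genes), with 1 higher at an unadjusted p under 0.05 and 0 with DESeq2. The gene called lower was *Tcf4* (log2 ratio -1.28, adjusted p = 0.0001 from edgeR). *Tcf3* (-0.76) and *Tcf12* (-0.37) were not called, and with library totals they made 3 lower genes together with *Tcf4*. That scale called 6802 of all 16426 genes lower. *Id1* (0.40) and *Id3* (0.30) were not called and had negative values with library totals.

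Dynactin subunit genes, whose products *Dynap* binds, were read at high levels in both groups. Of 12 genes 4 were called higher and 1 lower (median log2 ratio 0.55), but with library totals only 1 was higher and 1 lower (median -0.14). All 16426 genes tested had 20.9% higher and 24.9% lower with TMM factors, and 1470 higher and 6802 lower with library totals. The 4 were *Capza1* (1.86), *Capza2* (1.20), *Actr10* (1.00) and *Dctn3*, which was at 47.6 CPM in control and 135 CPM in *Supt6*-KO skin. Of these *Capza1* kept its call with library totals. *Capza1* and *Capza2* encode actin-capping proteins that also have roles outside dynactin. *Dctn1*, the largest subunit, which contacts dynein and microtubules, had 3060, 2562, 2604, 3315 and 3674 counts in control mice and 658, 352, 418 and 1083 in *Supt6*-KO mice (log2 ratio -1.67, adjusted p = 5.6e-05 from edgeR). Its groups did not overlap.

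Of the 7 AP-1 subunit genes 0 were called higher and 2 lower (median -0.32), and with library totals 0 were higher and 5 lower. The shares over all 16426 genes with TMM factors were 20.9% and 24.9%, and library totals gave 1470 higher and 6802 lower. At an unadjusted p under 0.05 the number higher was 1, and DESeq2 called 0 higher and 1 lower. *Fosb* was at 35.2 ± 16.8 CPM (SD, n = 5) in control and 3.75 ± 1.61 CPM (SD, n = 4) in *Supt6*-KO skin, and *Jund* at 166 ± 23.1 and 80.3 ± 21.0 CPM. Without *Supt6*-KO mouse 3 only 1 of the 7 was called lower. *Junb* (0.83), *Fosl1* (0.35), *Jun* (-0.30), *Fos* (-0.32) and *Fosl2* (-0.99) were not called. Of the *Supt6*-KO mice, mouse 4 had the highest counts of *Junb* (6559), *Fosl1* (215.52), *Fosl2* (1996) and *Fosb* (170), and mouse 1 those of *Jun* (1662), *Fos* (1118) and *Jund* (2608).

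Keratinocyte markers were abundant in both groups of these skin libraries. They summed to 31390 ± 1601 CPM (SD, n = 5) in control and 50410 ± 6560 CPM (SD, n = 4) in *Supt6*-KO skin and were led by *Krt10*. Of 10 markers 4 were called higher and 2 lower (median 0.43), and with library totals 2 and 3 (median -0.25). All 16426 genes had 20.9% higher and 24.9% lower with TMM factors, and 1470 higher and 6802 lower with library totals. *Krt1* (3.65) and *Ivl* (1.99), of differentiating cells, were higher, as were *Perp* and *Sfn*, while *Krt10* (0.19), also of differentiating cells, was not called. Of the genes of basal cells, *Krt15* (-2.65) and *Trp63* (-1.21) were lower, and *Krt5* (-0.86) and *Krt14* (0.66) were not called. Without mouse 4, 4 markers were called lower. The summed level was 55350, 52750 and 52810 CPM in *Supt6*-KO mice 1 to 3 and 40740 CPM in mouse 4.

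Of 10 neutrophil markers tested 7 were called higher and 1 lower. However, *Ltf*, *Ly6g* and *Ngp* had fewer than 10 counts over the controls and passed the count filter through their *Supt6*-KO counts alone, and *Mpo* passed it through its control counts alone, which leaves 4 called higher and 0 lower. Among these 4, *Cxcr2* had a log2 ratio of 1.15, but 0.46 and no call with library totals, which gave 6 markers higher and 1 lower. The background with TMM factors was 20.9% higher and 24.9% lower for these markers and those of the other cell types below. Library totals gave 1470 higher and 6802 lower of all 16426 genes. *Retnlg* had a log2 ratio of 6.59 and *Csf3r* of 4.08. The marker called lower was *Mpo*, a granule enzyme gene, with 4, 10, 10, 26 and 16 counts in control mice and 1, 0, 0 and 0 in *Supt6*-KO mice, and *Mmp9* (0.46) and *Camp* (0.10) were not called. Their summed level, led by *Mmp9* in control and by *Retnlg* in *Supt6*-KO skin, was 20.1 ± 2.25 CPM in control skin and 52.9, 53.1, 113 and 44.5 CPM in *Supt6*-KO mice. It was highest in mouse 3, not in mouse 4. Of 7 macrophage markers, summed to 143 ± 48.0 CPM in control and 259 ± 24.6 CPM in *Supt6*-KO skin and led by *Csf1r* in the former and *Mrc1* in the latter, 4 were called higher and 1, *Csf1r*, lower (median 1.04). The number called higher was 1 with library totals and 2 with upper-quartile factors, without mouse 4 or without control mouse 3.

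In the lists for 3 other cell types 0 markers were called higher, by edgeR or DESeq2, and 0 were higher at an unadjusted p under 0.05. Of 12 skeletal muscle markers 0 were called higher and 10 lower (median -2.42), and their sum, led by *Acta1* in control and by *Mylpf* in *Supt6*-KO skin, was 5256 ± 531 CPM in control and 1077 ± 188 CPM in *Supt6*-KO skin, so that the libraries hold muscle as well as skin. Fibroblast markers had 0 called higher and 3 lower of 7 (median -0.96) and summed to 5693 ± 2942 and 2777 ± 791 CPM, led by *Col3a1*, with sums that overlapped between the groups. Endothelial markers, of cells on which proliferins act, had 0 called higher and 4 lower of 6 (median -1.13) and summed to 84.2 ± 25.2 and 40.8 ± 5.69 CPM, led by *Pecam1*. Only 1 of these 6 was called lower without control mouse 5. With library totals 12 muscle, 6 fibroblast and 5 endothelial markers were lower, beside 6802 of all 16426 genes tested. The part of cell composition in the levels of the 4 genes was not tested.

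The genes outside the 4 members whose levels were most like those of each member over the 9 mice were found by the root mean square difference in log2(CPM + 0.5). For *Tcf23* they were *Tmprss11d* (0.31), *Cstdc6* (0.33) and *Tmprss11a* (0.38), genes of epithelial serine proteases and of a stefin-type inhibitor. *Tmprss11d* had 0, 2, 2, 1 and 4 counts in control mice and 497, 480, 673 and 477 in *Supt6*-KO mice. It was thus near the floor in control mice, as *Tcf23* was, but mouse 4 stood less far below the other *Supt6*-KO mice.

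For *Dynap* the nearest were *Il24* (0.79), *Sprr3* (0.82) and *Gml2* (0.85). *Il24*, a cytokine of the IL-10 family made by keratinocytes, had 26, 25, 23 and 492 counts in *Supt6*-KO mice, and *Sprr3*, of the cornified envelope, had 20, 12, 35 and 311. Both were far higher in mouse 4 than in the other 3 mice. The differences of 0.79 and more mean that no gene followed *Dynap* as closely as *Tmprss11d* followed *Tcf23*.

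*Prl2c2* was most like *Pbp2* (0.25), which encodes a phosphatidylethanolamine-binding protein, *Sprr3* (0.36) and *Serpinb1b* (0.45), a protease inhibitor gene. *Pbp2* had 5, 9, 41 and 171 counts in *Supt6*-KO mice. *Prl2c3* was most like *Il19* (0.57), *Cxcl5* (0.61) and *Pitx1* (0.68). *Il19*, a relative of *Il24*, had 6, 14, 6, 1 and 0 counts in control mice and 233, 147, 130 and 991 in *Supt6*-KO mice, and *Cxcl5*, a chemokine that attracts neutrophils, had 78, 97, 153 and 380. None of the nearest genes of 1 proliferin was among those of the other. Both patterns rest on the uncertain division of reads between *Prl2c2* and *Prl2c3*, and neither gene could be listed for the other. With a pseudocount of 2 in place of 0.5, 2 of the 3 genes were the same for *Tcf23* and *Prl2c2* and 1 of 3 for *Dynap* and *Prl2c3*.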

How the data were processed

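RNA-Seq was analysed for the skin of 5 control and 4 *Supt6*-KO mice. The authors deposited estimated counts per gene, not normalized between samples, and TPM values for 6 of the 9 mice. The authors aligned reads to mm10 with Bowtie2 2.3.4.3 and made these estimated counts and the TPM with RSEM 1.3.1. The submitters' processing notes also name HISAT and DESeq2 1.4.5, and the annotation is not given in the sources used here. Of 17943 rows, 17519 were named through the gene identifier and 392 through a symbol, and 32 had no match. Of the estimated counts 9.0% were not whole, and all were rounded.

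Depth was 29627341 to 30967107 counts per mouse. The floor was 3 counts per library, and floors and intervals cover counting error only. Groups were compared with edgeR 4.0.16 in R 4.3.3 (quasi-likelihood test, TMM factors, Benjamini-Hochberg adjustment) in place of the study's DESeq2, over 16426 genes with at least 10 counts summed over the mice. CPM values use the TMM library sizes. A gene was called at an adjusted p under 0.05 and at least a 2-fold change. TPM were rebuilt for the mice without them from counts and the effective lengths implied by the TPM of *Supt6*-KO mouse 4. In the controls the rebuilt values had a median of 0.958 to 0.978 of the deposited TPM. The fits were tested on simulated data. Directions are relative to the bulk of genes, because the TMM factors differed between the groups.

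The members and the 13 gene lists were chosen with earlier results of these data known. Independently of its values, 1 macrophage marker is not reported here. Genes named are the members, *Supt6*, list genes, the 2 nearest genes on each side, the 3 most alike genes per member and the 5 near-silent genes with the highest *Supt6*-KO mean, and *Fgf3* and *H4c18* were added after their values were seen. Gene models are GENCODE M21, and promoter sequences and distances between neighbours come from RefSeq. Windows were searched for exact matches of 100 bases. The fits were repeated with upper-quartile factors, library totals, DESeq2 1.42.0, stricter and looser filters, unrounded counts, a replicate block, each mouse left out and another pseudocount. Summaries used Python 3.11.15, pandas 2.3.3, scipy 1.17.1, Biopython 1.88 and matplotlib 3.10.9.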

Additional observations from a re-analysis of the deposited data

Results flagged for a closer look

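In 61 groups of mice examined for a mouse far from the others of its group, 5 were found, and chance alone gives about 1 in 20 groups. In *Supt6*-KO mouse 4 *Dynap* was at 35.1 CPM, against a group median of 3.67, and *Prl2c2* at 8.98 CPM, against a median of 0.856. The means of both genes rest largely on mouse 4. *Ero1b*, the neighbour of the proliferin genes, stood out in *Supt6*-KO mouse 1 at 2.55 CPM (median 1.97). *Prl2c5* stood out in control mouse 2 at 0.0274 CPM (median 0), which is 1 count. The summed neutrophil markers stood out in *Supt6*-KO mouse 3 at 113 CPM (median 53.0).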

How the results depend on the processing

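With library totals in place of TMM factors, 1470 genes were called higher and 6802 lower, against 3427 and 4088, the median over all genes went from -0.07 to -0.76 on the log2 scale, and the ratio of *Tcf23* to control was 201. Upper-quartile factors gave 3097 higher and 4401 lower genes, DESeq2 3570 and 3773, no filter 3478 and 4109, at least 10 counts in every mouse 2627 and 3073, and unrounded counts 3430 and 4088. Under the latter filter the 4 members drop out by construction. *Supt6* stayed lower under each of these, from -2.26 with library totals to -1.51 with DESeq2.

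With each mouse left out in turn, 3248 to 3476 genes were higher and 3845 to 4204 lower, and the log2 ratio of *Supt6* was -1.66 to -1.47. The *Supt6*-KO mean was 20.2 to 25.8 CPM for *Tcf23* (ratio 303 to 394), 2.65 to 14.6 for *Dynap* (bound 32.5 to 176), 0.633 to 3.68 for *Prl2c2* (bound 7.75 to 44.2) and 6.26 to 12.5 for *Prl2c3* (bound 76.7 to 147). Of the other values, counts of calls per list included, 427 were within 1.5 times or the spread of the main value and 31 were not. Among those outside, no filter gave 4 placental markers higher, and at least 10 counts in every mouse gave 0 bHLH relatives lower and 2 neutrophil markers higher, from fewer genes tested. The order of the *Supt6*-KO mice for *Tcf23* had 2 of 4 places the same with raw counts and with TPM rebuilt from counts, an alternative added after the data were seen, and mouse 4 was lowest in each. An order from deposited TPM was not run, since of the 4 *Supt6*-KO mice only mouse 4 has them.

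The replicate numbers do not pair the mice: deviations of same-numbered mice had correlations of -0.01 to 0.16 (mean 0.079). A replicate block gave 3134 higher and 3834 lower genes and a log2 ratio of -1.46 for *Supt6*, and it left 1 of 6 endothelial markers lower in place of 4. With 5 and 4 mice, and 1 library per mouse, counts under the floor of 3 cannot show expression or its absence.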

Other observations

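A separate row under the symbol *Prl2c4*, a further proliferin gene, had 1 count in control mouse 2 and 0 in every other mouse.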
